A study of Homo sapiens with 4 samples.

Results

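Abundant DNA-bending and nucleosome-binding proteins of the HMG families and acidic histone chaperones of the ANP32 and SET families were followed in MV4-11 cells with and without knockdown of the transcription factor IRF1. The group comprised HMGB1, HMGB2, HMGB3, HMGA1, HMGN1, HMGN2, ANP32A, ANP32B, ANP32E and SET, which are 10 of the 23622 genes in the table, matched by gene symbol. MV4-11 is an established human line of acute myeloid leukemia. 2 sh-NC libraries (control) and 2 sh-IRF1 libraries (knockdown) of total RNA were compared. The sample labels describe the sh-NC cells as wild type with no treatment, whereas the study names them after a control hairpin, and the sh-IRF1 cells carried a short hairpin RNA against IRF1 delivered by lentivirus. Which IRF1 hairpin was used in each library is not given in the sources used here, and neither is whether replicates were separate cultures, so p-values measure only the spread between these libraries. The 10 genes were selected on family and on log2 fold changes between these 2 groups that earlier work on the same libraries had given, so those differences are given as a description without a test.

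HMGB proteins carry a pair of HMG boxes that bend DNA without reading a specific sequence, and HMGB1 released from cells also acts as an alarm signal. HMGA1 binds the minor groove of AT-rich DNA through AT-hooks, and HMGN proteins bind the nucleosome core and loosen the compaction that linker histone H1 imposes. ANP32 proteins join leucine-rich repeats to an acidic tail that can hold histones, ANP32E removes the histone variant H2A.Z from nucleosomes, and SET is a histone chaperone that also inhibits the phosphatase PP2A.

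9 of the 10 genes were lower in sh-IRF1 than in sh-NC cells and 1, HMGA1, stayed near its control level. ANP32B was lowest relative to control, at 42.3% of its sh-NC mean, followed by HMGB1 at 55.9%, HMGB2 at 59.7%, HMGN2 at 64.8% and HMGN1 at 67.4%. ANP32E, ANP32A, HMGB3 and SET lay between 78.5% and 88.5% of control. All 10 passed the filter on low values, with no library below 1029 normalized counts. A normalized count here is the number of reads of a gene divided by 1 scaling factor per library. The median log2 fold change of the 10 genes was -0.46, beside -0.0019 over the 14120 genes tested. At an adjusted p under 0.05 in limma, 9 of the 10 were called lower and 0 higher, where 21.9% of all tested genes were called lower and 20.3% higher. With a log2 fold change beyond -0.5 as well, 5 of the 10 were called lower, against 7.56% of tested genes. The 2 sh-IRF1 values lay below both sh-NC values for the same 9 genes, an ordering held by 35.0% of tested genes, while 34.2% had the opposite ordering. Because the choice of genes used this contrast, nothing is read from these counts. In bulk RNA, fewer cells of a type and less RNA per cell cannot be told apart.

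**Figure D1:**
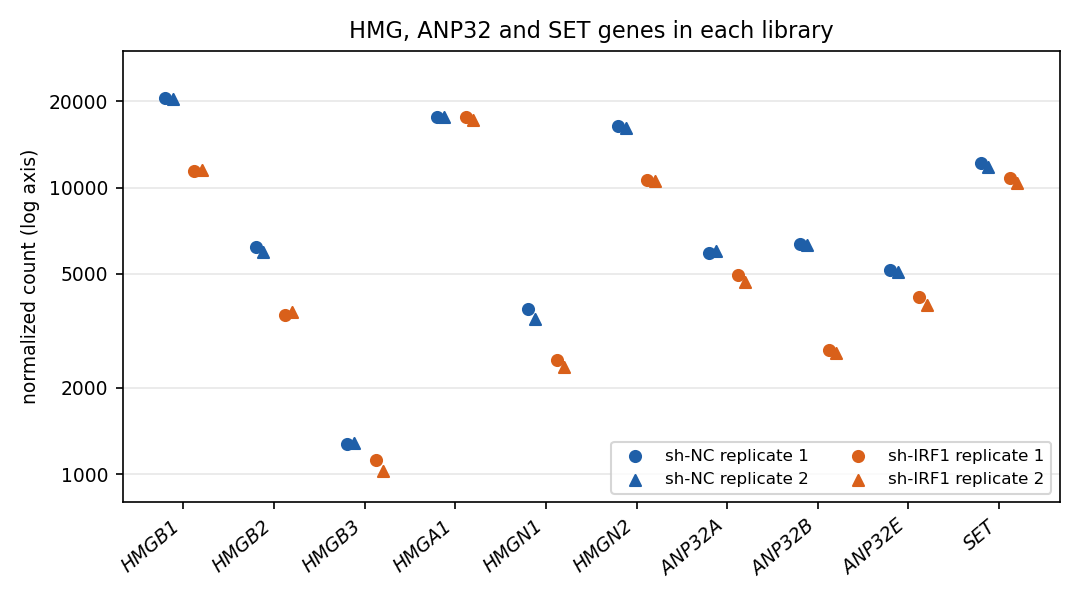
Normalized counts (log axis) of the 10 genes in each of the 4 libraries, with sh-NC in blue, sh-IRF1 in orange, circles for replicate 1 and triangles for replicate 2. Both sh-IRF1 points lie below both sh-NC points for every gene but HMGA1, and the gap is widest for ANP32B.

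The libraries held 17635908 to 18695337 reads. IRF1 itself, the target of the hairpin, had normalized counts of 785 and 738 in control and 430 and 432 after knockdown, a log2 fold change of -0.82 (SE 0.0904, limma adjusted p = 1.69e-10). Another gene overlaps 22.9% of the exonic bases of IRF1. All 8 myeloid markers examined were present, and their summed normalized counts were 23380 to 23500 in sh-NC and 19580 to 19740 in sh-IRF1 cells. FLT3, the receptor kinase that makes up most of this sum, had normalized counts of 17390 and 17410 in control and 12750 and 12630 after knockdown, and without it the other 7 summed to 5984 to 6091 in control and 6948 to 6992 after knockdown. Within those 7, LYZ (lysozyme) was higher, with 1824 and 1785 in control and 3276 and 3218 after knockdown. MPO (myeloperoxidase) was lower, with 477 and 443 in control and 185 and 158 after knockdown, and the monocyte marker CD14 stood at 37.95 and 42.1 in control and 10.9 and 1.87 after knockdown. Of the other cell types examined, the 2 epithelial keratins in the table summed to 254 to 343 in sh-NC and 362 to 392 in sh-IRF1 cells. CD79A, a component of the B cell receptor, had 50.3 and 43.1 normalized counts in control and 190 and 250.2 after knockdown. Neither CD79A nor a keratin was at 0, and the part of these shifts in the results below was not tested. T cell and erythroid markers were not analysed here.

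The promoters of 8 of the 10 genes were read from RefSeq sequences on GRCh38.p14, as windows of 300 bases from 250 before to 50 after the transcription start, and HMGB2 and ANP32E were not searched. The motifs were searched on both strands, and overlapping matches of different motifs were counted separately. CCAAT, the core recognised by the factor NF-Y, was found on either strand in 7 of the 8 windows, whereas 34.6% of 35116 windows of the same length hold it. Each of the 8 genes was read at the start of the transcript that Ensembl marks as canonical. The 35116 windows are all those of this length in the set, not matched to the 8 by kind of start or by level, so the shares are not like for like. Windows with 3 or more copies make up 3.26% of the total and include HMGB1, HMGB3 and ANP32A. The GC box GGGCGG, searched on both strands, occurred in 7 of 8 windows beside 45% of all windows. The E-box CACGTG, a palindrome that MYC and related factors bind, occurred in HMGN2 and ANP32B beside 7.26% of all windows, and GAAA followed after any 2 bases by GAAA, a core of the element bound by IRF proteins, occurred on neither strand in any of the 8 beside 3.57%. The 8 windows had 58.7% to 81% G and C, at or above the median of 58.7% for all windows, and these matches are letters in a window rather than binding sites. The 250 bases before the start are shown for the 3 genes with 3 CCAAT copies, for ANP32B, which has none and was lowest relative to control, and for HMGA1, whose groups overlapped. They lie at chr13:30465937-30466186 (minus strand) for HMGB1, chrX:150983085-150983334 (plus) for HMGB3, chr15:68820896-68821145 (minus) for ANP32A, chr9:97983091-97983340 (plus) for ANP32B and chr6:34236623-34236872 (plus) for HMGA1. Each is written 5′ to 3′ along the strand of its gene, and capitals mark CCAAT, its complement ATTGG, or CACGTG.
HMGB1: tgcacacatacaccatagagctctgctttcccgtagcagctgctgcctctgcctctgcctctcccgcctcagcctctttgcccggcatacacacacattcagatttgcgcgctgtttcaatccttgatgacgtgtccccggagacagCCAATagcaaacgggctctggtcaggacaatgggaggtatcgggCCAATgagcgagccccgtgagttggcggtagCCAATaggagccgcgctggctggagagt
HMGB3: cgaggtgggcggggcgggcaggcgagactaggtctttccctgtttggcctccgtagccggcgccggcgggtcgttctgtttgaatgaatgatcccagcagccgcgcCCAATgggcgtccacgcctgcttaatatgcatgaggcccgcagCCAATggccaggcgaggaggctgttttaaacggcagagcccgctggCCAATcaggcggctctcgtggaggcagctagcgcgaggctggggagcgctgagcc
ANP32A: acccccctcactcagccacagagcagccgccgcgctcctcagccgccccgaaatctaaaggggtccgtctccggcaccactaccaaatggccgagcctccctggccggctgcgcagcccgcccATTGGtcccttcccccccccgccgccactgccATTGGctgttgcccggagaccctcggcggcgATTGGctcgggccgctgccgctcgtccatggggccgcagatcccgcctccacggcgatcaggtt
ANP32B: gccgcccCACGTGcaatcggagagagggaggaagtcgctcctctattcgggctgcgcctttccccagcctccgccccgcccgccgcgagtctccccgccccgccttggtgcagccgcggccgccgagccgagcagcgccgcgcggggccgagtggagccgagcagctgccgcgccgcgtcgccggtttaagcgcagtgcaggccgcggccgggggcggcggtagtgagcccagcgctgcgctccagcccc
HMGA1: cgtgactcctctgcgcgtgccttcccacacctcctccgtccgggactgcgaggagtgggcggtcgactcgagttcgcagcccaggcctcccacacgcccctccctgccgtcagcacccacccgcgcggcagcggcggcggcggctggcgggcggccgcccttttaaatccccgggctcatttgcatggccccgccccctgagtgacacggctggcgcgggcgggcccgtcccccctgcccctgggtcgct
The CCAAT copies of HMGB1 begin 103, 59 and 28 bases before the start, those of HMGB3 144, 101 and 55 bases before it, and those of ANP32A, all on the opposite strand, 127, 95 and 64 bases before it. The only copy in the HMGA1 window lies 38 bases after the start and so outside the stretch shown.

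The HMGB genes differed among themselves in how far they lay below control. HMGB1 (ENSG00000189403, chromosome 13, 30456704 to 30617597, minus strand, GRCh38) had normalized counts of 20604 and 20391 in control and 11417 and 11497 after knockdown. Its groups were far apart and its replicates close, with means of 20498 ± 150.4 and 11457 ± 56.1 (± SD over n = 2 libraries) and a log2 fold change of -0.84 (SE 0.0266). HMGB2 (ENSG00000164104, chromosome 4, 173331376 to 173334432, minus strand), a close relative of HMGB1 typical of dividing cells, had normalized counts of 6215 and 5971 in control and 3596 and 3680 after knockdown. Its groups did not overlap either, and the log2 fold change was -0.74 (SE 0.0378). HMGB3 (ENSG00000029993, chromosome X, 150980509 to 150990771, plus strand), the member of the family known from hematopoietic progenitors, had normalized counts of 1278 and 1290 in control and 1125 and 1029 after knockdown. Those values are the lowest of the 10 genes and the groups lie close together. The log2 fold change of HMGB3 was -0.26 (SE 0.0654), and without sh-IRF1 replicate 2 it was -0.19 and no longer called. The ratio of HMGB1 to HMGB3 was 16.1 and 15.8 in the sh-NC libraries and 10.1 and 11.2 in the sh-IRF1 libraries, so the balance between these paralogs shifted away from HMGB1. The ratio of HMGB1 to HMGB2 moved less, from 3.32 and 3.42 to 3.18 and 3.12. Only the change of such a ratio across libraries is read here, since its size depends on the lengths of both transcripts.

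The nucleosome-binding HMGN genes were lower by similar proportions. HMGN2 (ENSG00000198830, chromosome 1, 26472440 to 26476642, plus strand) had normalized counts of 16452 and 16167 in control and 10597 and 10539 after knockdown. The replicates of each group nearly coincided and the groups were well apart, with a log2 fold change of -0.63 (SE 0.0277). HMGN1 (ENSG00000205581, chromosome 21, 39342315 to 39349647, minus strand) had normalized counts of 3775 and 3474 in control and 2510 and 2373 after knockdown, and its log2 fold change was -0.57 (SE 0.0460). Its control replicates (3624 ± 213, SD) were relatively farther apart than those of HMGN2, but the groups did not overlap. The ratio of HMGN2 to HMGN1 was 4.36 and 4.65 in sh-NC and 4.22 and 4.44 in sh-IRF1 libraries, and these ranges overlap.

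HMGA1 (ENSG00000137309, chromosome 6, 34236873 to 34246231, plus strand), the AT-hook protein of the group, was the exception. It had normalized counts of 17627 and 17595 in control and 17601 and 17222 after knockdown. One sh-IRF1 value lay between the sh-NC values, so the groups overlapped. The log2 fold change of HMGA1 was -0.016 (SE 0.0258), and its sign turned to give 0.028 when libraries were scaled by total reads. As the other 9 genes were lower, HMGA1 took 18.4% and 18.7% of the summed normalized counts of the 10 genes in the sh-NC libraries and 25.3% and 25.4% in the sh-IRF1 libraries. The ratio of HMGB1 to HMGA1 was 1.17 and 1.16 in sh-NC libraries and 0.649 and 0.668 in sh-IRF1 libraries.

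**Figure D2:**
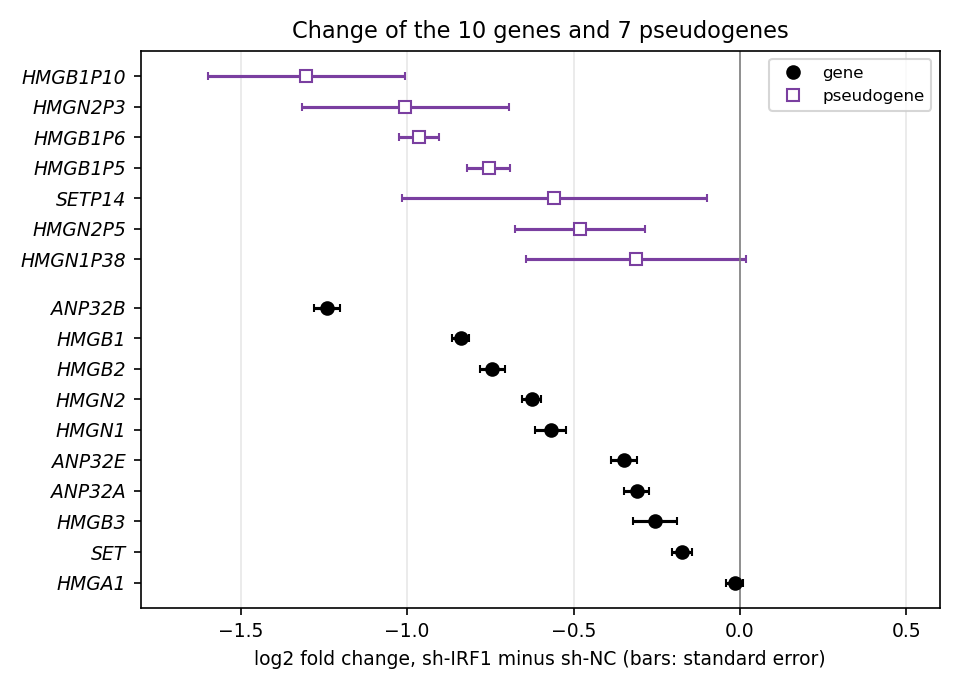
Log2 fold change (sh-IRF1 minus sh-NC) of the 10 genes (black circles) and of 7 of their pseudogenes (purple squares) on the log2(normalized count + 1) scale, with bars for the standard error from limma. Among the 10 genes ANP32B is lowest at -1.24, SET lies at -0.18, and the bar of HMGA1 at -0.016 spans 0.

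The ANP32 genes were the most unequal family. ANP32B (ENSG00000136938, chromosome 9, 97983341 to 98015943, plus strand), an acidic chaperone linked to cell proliferation, had normalized counts of 6378 and 6295 in control and 2721 and 2640 after knockdown. Both sh-IRF1 libraries were far below both controls, with means of 6337 ± 58.8 and 2680 ± 56.7 (± SD over n = 2 libraries) and a log2 fold change of -1.24 (SE 0.0391). ANP32A (ENSG00000140350, chromosome 15, 68778535 to 68820897, minus strand), an inhibitor of PP2A and part of the SET complex, had normalized counts of 5915 and 6029 in control and 4942 and 4691 after knockdown. Its groups were separate but nearer, and its log2 fold change was -0.31 (SE 0.0366). ANP32E (ENSG00000143401, chromosome 1, 150218417 to 150236156, minus strand), the H2A.Z chaperone, had normalized counts of 5153 and 5081 in control and 4153 and 3882 after knockdown, with a log2 fold change of -0.35 (SE 0.0390). The ratio of ANP32B to ANP32A was 1.08 and 1.04 in sh-NC libraries and 0.551 and 0.563 in sh-IRF1 libraries. That of ANP32E to ANP32A was 0.871 and 0.843 in sh-NC and 0.840 and 0.827 in sh-IRF1 libraries, a far smaller shift. The unequal change within the family is thus that of ANP32B against both relatives. In the upstream stretches shown above, ANP32A held 3 CCAAT copies and ANP32B none, and ANP32E was not searched. HMGB1 and HMGB3 also held 3, at log2 fold changes of -0.84 and -0.26. A link between CCAAT copies and the change was not tested.

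SET (ENSG00000119335, chromosome 9, 128683424 to 128696400, plus strand) was the least lowered of the 9 genes. It had normalized counts of 12216 and 11751 in control and 10838 and 10384 after knockdown. The groups did not overlap, but their gap of means, 11984 ± 329 against 10611 ± 322 (± SD over n = 2 libraries), was small beside that of ANP32B or HMGB1, and the log2 fold change was -0.18 (SE 0.0301). The ratio of SET to its partner ANP32A was 2.07 and 1.95 in sh-NC and 2.19 and 2.21 in sh-IRF1 libraries.

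Over the 10 genes the largest replicate SD was 6.32% of its mean. Together they took 0.529% and 0.519% of all reads in the sh-NC libraries and 0.395% and 0.388% in the sh-IRF1 libraries. None of the 10 shares exonic bases with another gene of GENCODE 44, and they lie on 8 chromosomes. ANP32B and SET, both on chromosome 9, had log2 fold changes of -1.24 and -0.18. HMGN2 and ANP32E, both on chromosome 1, were nearer to each other, at -0.63 and -0.35.

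Per kilobase of exon, HMGA1 had the highest level in both groups, with a mean of 7568 normalized counts per kilobase in sh-NC and 7483 in sh-IRF1 cells. HMGN2 came next, with 5114 and 3314. In sh-NC cells ANP32B (3389), HMGB1 (2663), HMGB2 (2538), SET (2017), ANP32E (1419), ANP32A (792), HMGN1 (719) and HMGB3 (328) followed in that order. In sh-IRF1 cells SET (1786) stood at rank 3, ahead of HMGB2 (1515), HMGB1 (1489) and ANP32B (1433), and the 4 lowest genes kept their order. Thus ANP32B went from rank 3 to rank 6 while SET went from rank 6 to rank 3. The replicate ranges of neighbouring genes did not overlap in either group, although those of HMGB1 (1484 to 1494) and HMGB2 (1498 to 1533) nearly touched in sh-IRF1 cells. The lengths are unions of all annotated exons, from 1.87 kb for ANP32B to 7.70 kb for HMGB1, and the order could shift with other lengths. Values of named pseudogenes are left out of these levels. For HMGB1 they came to 19.5% of its own in sh-NC and 19.0% in sh-IRF1 cells. Its rank beside HMGB2 and SET in sh-IRF1 cells is therefore uncertain, whatever the replicate ranges.

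**Figure D3:**
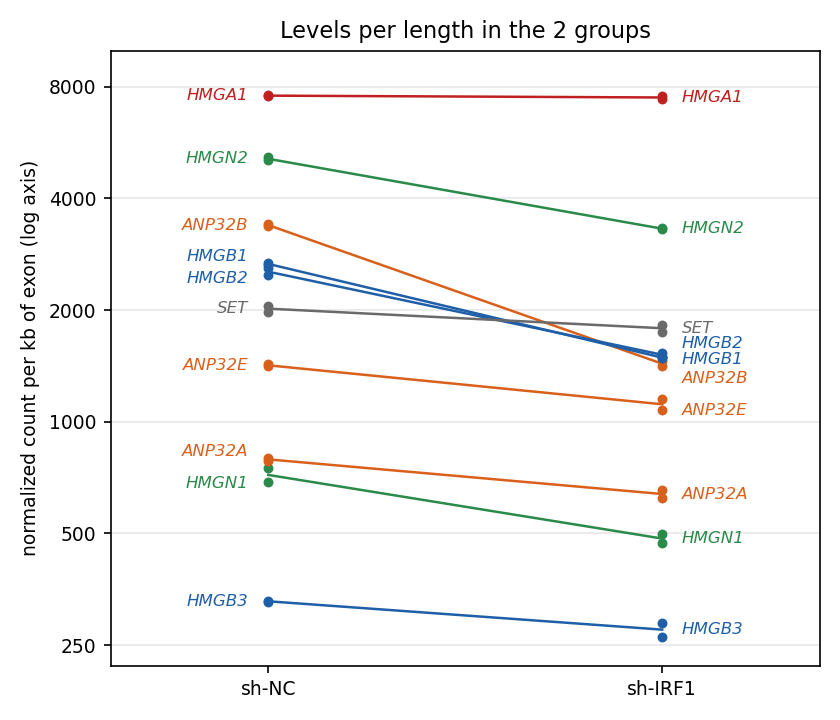
Normalized counts per kilobase of exon union (log axis) of the 10 genes, with both libraries of each group shown. HMGA1 is highest and HMGB3 lowest in both groups, and ANP32B passes from above SET in sh-NC to below it in sh-IRF1 cells.

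Several of these genes have many processed pseudogenes, copies of their mRNA inserted elsewhere in the genome, whose reads are hard to assign. The table held 41 such named copies of the 10 genes: 11 of HMGB1, 10 of HMGN2, 6 each of HMGN1 and HMGB3, 4 of HMGA1, 2 of SET, 1 each of HMGB2 and ANP32A, and 0 of ANP32B and ANP32E. 34 of the 41 had a mean below 10. Their summed values came to 19.5% of the parent's own for HMGB1 in sh-NC and 19.0% in sh-IRF1 cells, and to at most 2.17% for any other gene in either group. ANP32B, the gene lowest relative to control, has no named copy in the table.

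Of the 7 copies with a mean of at least 10, 5 were called lower and 0 higher, beside 21.9% and 20.3% of all tested genes. These copies resemble parents that were chosen with this contrast known. Nothing is therefore read from these counts or from the adjusted p-values of the copies. HMGB1P6 (chromosome 15, 71164770 to 71165415) had normalized counts of 2304 and 2307 in control and 1279 and 1091 after knockdown, a log2 fold change of -0.96 (SE 0.0601, limma adjusted p = 2.32e-18). HMGB1P5 (chromosome 3, 22381720 to 22382929) had 1645 and 1553 in control and 934 and 959 after knockdown, a log2 fold change of -0.76 (SE 0.0634, limma adjusted p = 5.36e-14). Both lay below control by about the proportion of HMGB1 itself, at 51.4% and 59.2% of control. Their transcripts match that of HMGB1 at 98.2% of 648 aligned bases for HMGB1P6 and 98.2% of 1206 for HMGB1P5, so their reads and those of HMGB1 are uncertain and they are not independent of it.

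Among the rarer copies, HMGB1P10 had a log2 fold change of -1.30 (SE 0.297, limma adjusted p = 0.000316). HMGN2P3 had one of -1.01 (SE 0.311, limma adjusted p = 0.00739), and HMGN2P5 one of -0.48 (SE 0.195, limma adjusted p = 0.0431). HMGN2P3 matches HMGN2 at 99.3% and HMGN2P5 at 99.6% of 273 bases. Both calls were lost without sh-IRF1 replicate 2, where the adjusted p was 0.0866 for HMGN2P3 and 0.342 for HMGN2P5. That of HMGN2P5 was also lost without sh-NC replicate 1 (adjusted p = 0.212), with DESeq2 (0.123), when scaling by total reads (0.0662), with no filter (0.0581) and with shrinkage that was not robust (0.05003). HMGN1P38 (log2 fold change -0.31, limma adjusted p = 0.477) turned to 0.22 without sh-NC replicate 1, and SETP14 stood at -0.56 (limma adjusted p = 0.347). With the reads of all copies added to their parents, HMGB1 stood at a log2 fold change of -0.85 and HMGN2 at -0.63, and 9 of the 10 genes were still called lower.

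Related genes were listed from general knowledge, but with earlier results of these data known. They are described by their counts beside the shares of 21.9% lower and 20.3% higher over all tested genes. Some were named because they had the smallest p of their list in a direction, so their adjusted p-values are given as a description. Among other HMG genes, 21 of 25 were tested, 8 were called lower and 2 higher, and the median log2 fold change was 0.0020. TCF7L2, an HMG-box factor of WNT signalling, fell from 172 ± 10.7 to 54.7 ± 9.82 (mean normalized count ± SD, n = 2 a group), or -1.64 on the log2 scale (SE 0.216, limma adjusted p = 1.54e-08). HMGN4, a close relative of HMGN2, fell by 0.34 on the log2 scale (limma adjusted p = 0.000234). How well its reads can be told from those of HMGN2 was not tested. HMGN3, another member of the HMGN family, gave 0.12 (limma adjusted p = 0.293), and 10.7% of its exonic bases are shared. SSRP1, the HMG-box subunit of the FACT chaperone, stood at -0.12 (limma adjusted p = 0.00295), a call lost when scaling by total reads or without sh-IRF1 replicate 1. The 2 genes that rose were CIC, a transcriptional repressor with an HMG box (0.37, limma adjusted p = 1.06e-10), and WDHD1, a replication factor, at 0.33 (limma adjusted p = 2.47e-05), which was named after its value was seen. CIC has 5 named pseudogenes in the table, whose values came to 6.8% of its own. HMGA2 was not analysed here, so no other AT-hook HMGA gene stands beside HMGA1.

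**Figure D4:**
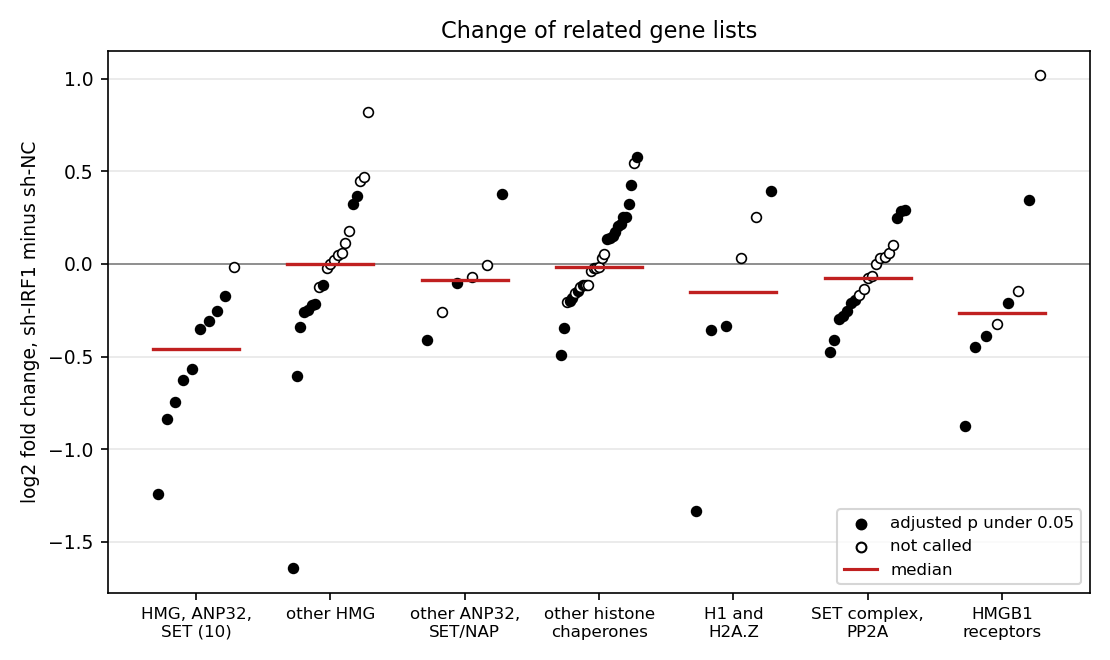
Log2 fold change (sh-IRF1 minus sh-NC) of each tested gene in the 10-gene group and in 6 related lists, with filled points for an adjusted p under 0.05, open points for the rest and a red line at each median. The median is -0.46 for the 10 genes, and those of the related lists lie between -0.27 and 0.0020. The 10 genes were selected with this contrast known, so nothing is read from the distance between these medians.

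For the other chaperones the directions were mixed. Among relatives of ANP32, SET and NAP, 6 of 11 were tested, with 2 called lower and 1 higher. TSPYL1, a relative of SET and NAP, fell by 0.41 on the log2 scale (limma adjusted p = 0.00117), NAP1L1, a chaperone of H2A and H2B, stood at -0.10 (limma adjusted p = 0.00455), and TSPYL4 at 0.38 (limma adjusted p = 0.0426). The call of NAP1L1 was lost when scaling by total reads (adjusted p = 0.115) and without sh-IRF1 replicate 2 (adjusted p = 0.0733), and that of TSPYL4 on leaving out sh-NC replicate 2 or either sh-IRF1 library (adjusted p from 0.0988 to 0.211). Of 29 other histone chaperones tested, 6 were called lower and 11 higher, with a median of -0.018. SSRP1, given above with the HMG genes, is counted here as well. The number called higher was 7 without sh-IRF1 replicate 1 and 6 without sh-IRF1 replicate 2. Nucleolin (NCL) fell from 23657 ± 39.0 to 16834 ± 236 (mean normalized count ± SD, n = 2 a group), or -0.49 on the log2 scale (limma adjusted p = 1.49e-21). Nucleophosmin (NPM1), like NCL an abundant nucleolar chaperone, fell by 0.34 (limma adjusted p = 7.98e-14), with 10 named pseudogenes at 2.02% of its own values. NASP, which holds histones H3 and H4, fell by 0.18 (limma adjusted p = 0.000991). CABIN1, a subunit of the HIRA chaperone complex, rose by 0.32 (limma adjusted p = 3.21e-08). CDAN1, named after its value was seen, rose by 0.58 (limma adjusted p = 4.03e-06), with 15.1% of its exonic bases shared.

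The histones that these proteins act on were also read. Of 6 linker histone and H2A.Z genes tested, 3 were called lower and 1 higher. H1-3 and H1-5 did not pass the filter. H1-4 was close to it, with mean normalized counts of 9.75 in control and 11.5 after knockdown. These linker histones were named after their values were seen, and their levels are too low to read a change. H2AZ1, the major H2A.Z gene, fell from 10441 ± 512 to 8261 ± 88.2 (mean normalized count ± SD, n = 2 a group), or -0.34 on the log2 scale (limma adjusted p = 2.85e-12). H2AZ2, its paralog, rose from 3437 ± 114 to 4522 ± 67.0 (mean normalized count ± SD, n = 2 a group), or 0.40 on the log2 scale (limma adjusted p = 1.62e-11). Both H2A.Z genes therefore differed from control, in opposite directions, beside a log2 fold change of -0.35 for their chaperone ANP32E. The linker histone H1-10, named after its value was seen, was also called lower, at -0.36 (limma adjusted p = 7.49e-07). Another gene overlaps 22.8% of the exonic bases of H1-10.

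Of 19 genes of the SET complex and of PP2A that were tested, 7 were called lower and 3 higher, with 4 called lower without sh-IRF1 replicate 1. PPP2CA, a catalytic subunit of PP2A, fell by 0.41 on the log2 scale (limma adjusted p = 1.38e-10), with 27.7% of its exonic bases shared. The other genes called lower beside NME1, named after their values were seen, were IGBP1, which binds the catalytic subunit (-0.48, limma adjusted p = 0.000112), the regulatory subunits PPP2R5C (-0.30, limma adjusted p = 1.26e-06), PPP2R2A (-0.28, limma adjusted p = 8.46e-06) and PPP2R5A (-0.19, limma adjusted p = 0.00369), and the scaffold subunit PPP2R1B (-0.21, limma adjusted p = 0.0140). The calls of PPP2R5A (adjusted p = 0.0603) and PPP2R1B (adjusted p = 0.324) were lost without sh-IRF1 replicate 1, and that of PPP2R1B also when scaling by total reads (0.0532) and with DESeq2 (0.0526). PPP2R1A, the main scaffold subunit, rose by 0.28 (limma adjusted p = 6.68e-10). PTPA, a PP2A activator, rose by 0.29 (limma adjusted p = 2.71e-07), and PPME1, a PP2A methylesterase, by 0.25 (limma adjusted p = 0.00308), both named after their values were seen. Of the nucleases of the SET complex, APEX1 gave 0.035 (limma adjusted p = 0.487), which turned to -0.015 without sh-NC replicate 2. NME1 gave -0.25 (limma adjusted p = 0.0156), with 18.7% of exonic bases shared, and its adjusted p lay between 0.0581 and 0.0790 without sh-NC replicate 1 or either sh-IRF1 library. CIP2A, a PP2A inhibitor, gave -0.064 (limma adjusted p = 0.573), which turned to 0.019 without sh-IRF1 replicate 2. SETBP1, which stabilises SET, was listed at 0 in both sh-NC libraries and did not pass the filter. GZMA and TREX1 were not analysed here.

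Of 8 receptors and partners of HMGB1 that were tested, 4 were called lower and 1 higher, with a median of -0.27. Thrombomodulin (THBD), which binds HMGB1, fell from 5630 ± 13.7 to 3071 ± 1.55 (mean normalized count ± SD, n = 2 a group), or -0.87 on the log2 scale (SE 0.0387, limma adjusted p = 8.64e-24). The toll-like receptors TLR2 and TLR4, through which extracellular HMGB1 signals, fell by 0.39 (limma adjusted p = 2.80e-08) and by 0.45 (limma adjusted p = 5.58e-05). The exportin XPO1, named after its value was seen, fell by 0.21 (limma adjusted p = 2.76e-07). AGER, the receptor known as RAGE, had normalized counts of 57.0 ± 13.7 in control and 45.7 ± 14.2 after knockdown (± SD over n = 2 libraries), a difference within that spread (limma adjusted p = 0.413). HAVCR2, also called TIM-3, was near the filter with 15.9 ± 2.16 and 34.0 ± 11.0 (± SD over n = 2 libraries), a log2 fold change of 1.02 (limma adjusted p = 0.0549). SIGLEC10 was the gene called higher, at 0.34 (limma adjusted p = 0.0333), but 22.6% of its exonic bases are shared and the call was lost on leaving out sh-NC replicate 2 or either sh-IRF1 library (adjusted p from 0.0563 to 0.242).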

How the data were processed

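RNA of 4 MV4-11 libraries was analysed, grouped by sample label into sh-NC and sh-IRF1. The deposited values are a normalized signal per gene: the authors scaled each library's reads per gene by a size factor of its own. The submitters' processing notes name HISAT2 2.0.5 and hg38, and the study's methods name FPKM, not used here, and DESeq2; the counting tool, annotation and use of strand are not given in the sources used here. Reads were recovered from these values (100% within 0.01 of a whole read), at 17635908 to 18695337 per library, and there were 0 value columns of other samples. Symbols matched 23456 of 23622 identifiers. Positions, lengths and overlaps came from GENCODE 44 on GRCh38, and promoters from RefSeq.

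limma 3.58.1 (R 4.3.3, variance trend, robust shrinkage) was fitted on log2(value + 1) over 14120 genes that reached 10 in 2 or more libraries, with Benjamini-Hochberg adjustment over all of them. All fold changes are on this scale, with 43.0 prior degrees of freedom for the variance. For a single gene an exact two-sided permutation test cannot go below p = 0.333 with 2 libraries against 2. Alternatives were TMM, upper-quartile and total-read scaling, pseudocounts, filters, shrinkage, edgeR 4.0.16 and DESeq2 1.42.0 on the recovered reads, a replicate block, pseudogene reads added to the parent, a log2 fold minimum of 0.5 and leaving out each library. The limma, edgeR and DESeq2 fits, but not the other steps, were run on simulated data with known changes, and the outcome is not given here.

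The 10 genes and the related lists were chosen with earlier results of these data known. Named were the 10 genes, IRF1, pseudogenes with a mean of at least 10, each related list's top call by p among higher and among lower genes, and 19 genes fixed by name; others are said to be named after their values were seen. Protein features were planned but not computed. The values of a marker and of a gene counted in a related list are not reported here.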

Additional observations from a re-analysis of the deposited data

How the results depend on the processing

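The log2 fold changes of the 9 lowered genes kept their sign under the 16 alternatives, from -1.26 to -1.20 for ANP32B and from -0.85 to -0.79 for HMGB1. The only call lost among them was that of HMGB3, at -0.19 without sh-IRF1 replicate 2. Signs turned for HMGA1 (0.028, scaling by total reads) and, on leaving out 1 library, APEX1 (from -0.015 to 0.086), CIP2A (from -0.15 to 0.019) and HMGN1P38 (from -0.84 to 0.22). The cause was not tested.

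With the fold minimum of 0.5, which can only lower a count, 5 of the 10 genes were called lower, and 1067 genes in all were lower and 1168 higher. The counts lower and higher were then 2 and 0 for other HMG genes, 0 and 0 for ANP32, SET and NAP relatives, 0 and 1 for other chaperones, 1 and 0 for linker histones and H2A.Z, 0 and 0 for the SET complex and PP2A, and 1 and 0 for HMGB1 receptors. Scaling by total reads, which moved the median of all genes by 0.0449, left 1 ANP32, SET or NAP relative lower and made 2 HMGB1 receptors higher. A pseudocount of 5 also made 2 HMGB1 receptors higher but kept 2 of those relatives lower. With DESeq2, 0 relatives and 0 receptors were higher, and with no filter 0 relatives were higher. Over the fits that leave out 1 library each, the calls ranged from 1 to 2 lower and 0 to 1 higher for those relatives, from 6 to 11 higher for chaperones, from 4 to 8 lower for the SET complex and PP2A, and from 0 to 1 higher for HMGB1 receptors.

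Whether same-numbered libraries were prepared together is not given in the sources used here. Their deviations had a correlation of -0.0154 across 14120 genes, which cannot show how the libraries were made. With the replicate block, 9 of the 10 genes were called lower, and 3147 genes in all were lower and 2903 higher. With n = 2 per group the spread of a single gene is poorly known, no spike-in allows a change in total RNA to be seen, and strand and multi-mapped reads could move values of genes with shared exons or pseudogenes.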
